A study of Mus musculus with 49 samples.

Results

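Enteroendocrine cells and Lgr5-GFP-DTR stem cells were 2 of the populations sorted from crypts of the proximal small intestine of adult mice, and their RNA was compared in 4 libraries, 2 per population, out of 49 samples in the series and 25 RNA libraries in the count table. The 4 libraries were chosen by their labels alone. The enteroendocrine cells came from wild-type mice and were sorted as CD24-high cells without binding of Ulex europaeus lectin (UEA), after the crypts had been disaggregated with 0.5 U/ml Dispase for 30 min. The stem cells came from mice of genotype Lgr5EGFP-DTR, in which the Lgr5 locus drives green fluorescent protein and the diphtheria toxin receptor (DTR), and were sorted on GFP after 45 min in 4X TrypLE. Mice of both groups were on a mixed B6;129 background and untreated. Genotype, sort gate and enzyme thus all differ between the groups and cannot be told apart from cell type in any value below. Replicates are labelled as biological, without saying which mice or days they came from.

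Enteroendocrine cells are the hormone-releasing cells of the gut epithelium. They arise from crypt stem cells through a secretory progenitor that switches on Neurog3, then a series of further transcription factors, and they store peptide hormones in dense-core granules that are released when the cell senses nutrients. Lgr5-expressing stem cells sit at the crypt base between Paneth cells, divide continuously under Wnt and Notch signals and give rise to every epithelial lineage.

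Promoters of genes that define the endocrine libraries are shown here because they carry short motifs of regulators known in hormone-producing cells. RefSeq promoters of 300 bases on build GRCm38.p6 (250 bases before and 50 after the start of the gene) were searched on both strands for CAGATG, an E-box of the kind that basic helix-loop-helix factors such as Neurod1 bind, and for TGACGTCA, the cyclic AMP response element that CREB factors bind. Neither motif contains the other, though their ends can overlap by 2 bases, and none of the 6 promoters shown held both. CAGATG was present in 5635 of 32851 promoters (17.2%), and in a promoter of 8 of the 13 listed hormone genes that had one in RefSeq (Ghrl, Gcg, Cck, Sct, Tac1, Insl5, Iapp and Ucn3). A promoter of 12 granin and processing genes was found, and none of the 12 held this E-box. TGACGTCA was present in 588 of 32851 promoters (1.79%), in 1 of the 13 hormone genes (Sst) and in 3 of the 12 granin and processing genes (Chgb, Scg2 and Pcsk1). The shares over all promoters count promoters, whereas a listed gene was counted once if any of its promoters matched, so the units differ. These matches describe the letters in the window only, and the motifs were chosen after the expression results were known. The first 3 promoters have the E-box in capitals, and the last 3 the cyclic AMP response element:
Sct (chr7:141279084-141279383, minus strand): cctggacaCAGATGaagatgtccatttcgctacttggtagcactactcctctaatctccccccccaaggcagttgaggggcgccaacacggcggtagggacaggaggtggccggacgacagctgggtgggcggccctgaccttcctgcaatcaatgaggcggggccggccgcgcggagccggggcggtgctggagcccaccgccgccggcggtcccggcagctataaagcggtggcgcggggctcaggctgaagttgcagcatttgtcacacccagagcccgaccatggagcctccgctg
Cck (chr9:121495645-121495944, minus strand): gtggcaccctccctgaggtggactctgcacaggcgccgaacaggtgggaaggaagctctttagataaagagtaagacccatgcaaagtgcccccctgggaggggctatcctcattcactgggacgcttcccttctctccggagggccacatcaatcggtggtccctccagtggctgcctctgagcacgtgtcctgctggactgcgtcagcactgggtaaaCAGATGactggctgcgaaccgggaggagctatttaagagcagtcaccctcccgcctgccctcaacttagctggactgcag
Gcg (chr2:62483604-62483903, minus strand): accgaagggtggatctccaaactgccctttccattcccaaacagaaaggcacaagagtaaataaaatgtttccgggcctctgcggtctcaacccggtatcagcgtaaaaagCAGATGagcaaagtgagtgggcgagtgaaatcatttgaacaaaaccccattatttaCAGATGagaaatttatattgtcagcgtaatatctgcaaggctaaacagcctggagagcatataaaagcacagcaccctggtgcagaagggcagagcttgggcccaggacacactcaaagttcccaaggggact
Sst (chr16:23890795-23891094, minus strand): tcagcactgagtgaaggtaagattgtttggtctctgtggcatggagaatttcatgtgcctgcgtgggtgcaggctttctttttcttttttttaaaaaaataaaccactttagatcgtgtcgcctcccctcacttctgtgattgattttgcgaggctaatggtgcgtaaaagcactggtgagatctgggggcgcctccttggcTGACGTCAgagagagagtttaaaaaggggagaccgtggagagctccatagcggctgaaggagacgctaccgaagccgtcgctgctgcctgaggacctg
Chgb (chr2:132781392-132781691, plus strand): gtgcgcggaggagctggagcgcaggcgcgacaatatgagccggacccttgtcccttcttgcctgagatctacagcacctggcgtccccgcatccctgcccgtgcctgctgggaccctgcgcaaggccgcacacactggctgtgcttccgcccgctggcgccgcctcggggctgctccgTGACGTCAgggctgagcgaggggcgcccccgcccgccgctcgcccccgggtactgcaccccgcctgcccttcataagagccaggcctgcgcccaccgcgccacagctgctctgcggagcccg
Scg2 (chr1:79439977-79440276, minus strand): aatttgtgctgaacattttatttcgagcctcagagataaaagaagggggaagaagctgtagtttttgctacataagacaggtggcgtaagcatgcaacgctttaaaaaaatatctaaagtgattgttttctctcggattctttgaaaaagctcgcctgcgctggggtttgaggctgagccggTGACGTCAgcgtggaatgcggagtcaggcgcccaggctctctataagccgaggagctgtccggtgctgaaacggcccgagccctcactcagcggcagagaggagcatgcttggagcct
The E-box began at base -242 of Sct, -30 of Cck and -139 and -83 of Gcg, counted from the start of the gene. The cyclic AMP response element began at base -48 of Sst, -72 of Chgb and -68 of Scg2. All 6 genes were more abundant in the enteroendocrine libraries, with the values given below.

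The enteroendocrine libraries held 17776587 and 24871834 counts and the Lgr5-GFP-DTR libraries 13225818 and 11179085. Levels below are CPM, read counts scaled to the TMM-adjusted size of each library, listed for replicate 1 and then replicate 2. A gene was called where edgeR's quasi-likelihood test gave a Benjamini-Hochberg adjusted p below 0.05. Log2 differences are enteroendocrine over Lgr5-GFP-DTR with an approximate standard error (SE). The SE is the size of the log2 difference divided by the square root of that test's F statistic. In bulk RNA, fewer cells of a type and less RNA per cell cannot be told apart.

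In both groups the libraries showed features that bear on every test. The counts of the enteroendocrine libraries had a shared lower edge. Among 8711 genes with at least 200 counts in replicate 1, the count in replicate 2 was never below 0.67 times that in replicate 1, although the median ratio was 1.45. Unrelated genes lay at that edge: the mast cell protease Mcpt1 had 1339 and 907 counts, the neuropeptide gene Tac1 7260 and 4916, the immunoglobulin joining chain Igj 1012 and 687, and the hormone gene Gip 294314 and 204631. Over 4 mast cell genes (Mcpt1, Mcpt2, Cpa3 and Fcer1a) the ratio was 0.678, and of the replicate 2 counts only 2.45% for Gip but 34.1% for Ghrl, 75.6% for Sst and 90.8% for the tuft cell kinase Dclk1 lay above 0.678 times replicate 1. Of 552 ordered pairs among the 24 libraries fitted, 3 had a median under 3 times their lowest ratio, and the other 2 were pairs of CD274+CD69+ control cells and of Lgr5-GFP-Cre stem cells. Whether the libraries of any of these 3 pairs share material was not tested. All 3 pairs enter the spread behind every p-value, and Lgr5-GFP-Cre cells are the comparison line used below. The p-values measure only the spread between libraries. Counts of calls are therefore also given for genes called with both and again with each enteroendocrine library alone. In those fits the lone library is assumed to vary like the other groups, and the Lgr5-GFP-DTR libraries are the same. If the 2 enteroendocrine libraries share material, the fits are not independent, and a call kept in both is not a separate replication. This limit weighs most on genes near the edge. Besides Gip and the mast cell genes, these included Gcg, Tac1, Cck, Chga and Chgb. The share of their replicate 2 counts above 0.678 times replicate 1 was -0.25%, -0.16%, 1.24%, 2.60% and 4.69%, a negative share meaning fewer counts than that. For Sct it was 13.0% and for Cpe 18.5%.

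**Figure D1:**
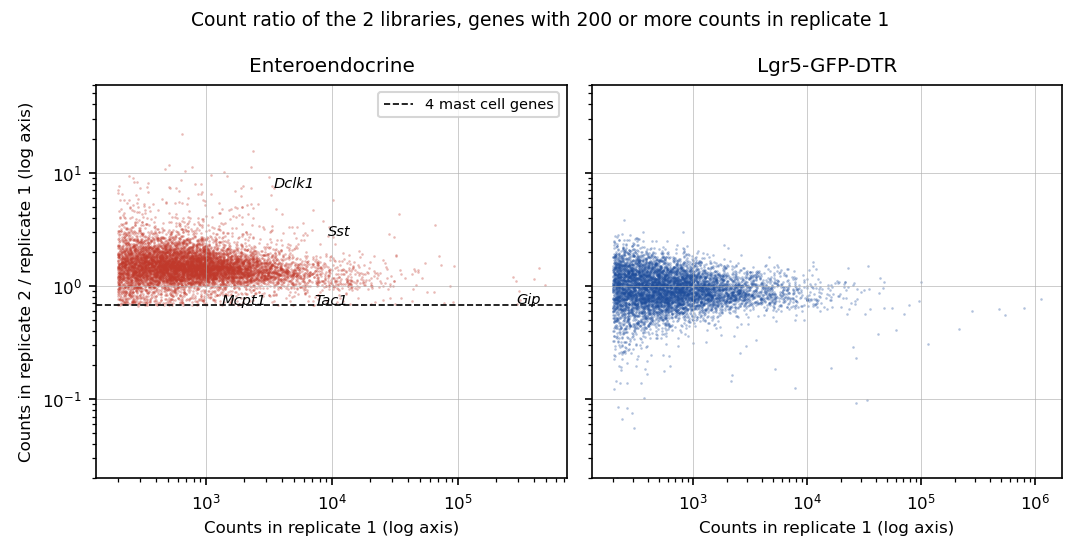
Counts of replicate 2 divided by counts of replicate 1 (vertical, log axis) against counts of replicate 1 (horizontal, log axis), 1 point per gene with 200 or more counts, for the enteroendocrine pair (left) and the Lgr5-GFP-DTR pair (right). The enteroendocrine points stop at a floor near 0.678 (dashed, 4 mast cell genes) where Gip and Tac1 lie, and Dclk1 lies far above it.

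The Lgr5-GFP-DTR libraries carried many transcripts of other crypt cells. Lyz1, the Paneth cell lysozyme, was at 25796 and 24246 CPM in enteroendocrine libraries, against 116254 and 91800 CPM in Lgr5-GFP-DTR libraries. In Lgr5-GFP-Cre stem cells, the other Lgr5 reporter line of the series, it was at 22502 to 27150 CPM, and in Paneth libraries at 195157 and 131664 CPM. All 21 tuft cell markers were higher in Lgr5-GFP-DTR than in Lgr5-GFP-Cre cells, and 10 of 11 Paneth markers were. In all, 3049 of 14837 genes (20.5%) differed between the 2 stem cell lines (1408 higher, 9.49%, and 1641 lower, 11.1%, in Lgr5-GFP-DTR). For genes that could be touched by this, the values in Lgr5-GFP-Cre cells stand beside the main comparison, which shares its enteroendocrine libraries with the comparison against that line.

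The genes used in the sorts followed their labels in part. Lgr5, the Wnt-amplifying receptor whose locus carries the reporter, was at 29.4 and 46.6 CPM in enteroendocrine cells and 114 and 88.9 CPM in Lgr5-GFP-DTR cells, and was called lower (log2 -1.41 ± 0.42 SE, edgeR adjusted p = 0.0161). Its libraries did not overlap between the groups, as for 59.3% of all genes tested. The call was lost with enteroendocrine replicate 2 alone (edgeR adjusted p = 0.139) but not with replicate 1 alone (edgeR adjusted p = 0.0272). Cd24a, the antigen of the enteroendocrine gate, was at 1823 and 3222 CPM in enteroendocrine cells and at 1690 and 1744 CPM in Lgr5-GFP-DTR cells, and was not called (log2 0.55 ± 0.36 SE, edgeR adjusted p = 0.247). In Lgr5-GFP-Cre cells it was at 387 to 450 CPM. Fut1 and Fut2, which encode fucosyltransferases that make the sugar bound by UEA, were not called. Hbegf, the mouse gene whose human counterpart is the diphtheria toxin receptor, was at 131 and 79.4 CPM in enteroendocrine cells and 23.5 and 60.8 CPM in Lgr5-GFP-DTR cells (log2 1.32 ± 0.45 SE, edgeR adjusted p = 0.0295), a call lost with enteroendocrine replicate 2 alone (edgeR adjusted p = 0.210). The human transgene has no row in the table used here.

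Across the transcriptome, enteroendocrine cells differed from Lgr5-GFP-DTR cells in 5045 of 14837 genes tested (34.0%), with 2947 higher (19.9%) and 2098 lower (14.1%). With both and again with each enteroendocrine library alone, 2378 genes remained called (16.0%), 1587 higher (10.7%) and 791 lower (5.33%). Replicate 1 alone gave 3646 of 15470 genes (23.6%; 14.3% higher and 9.30% lower) and replicate 2 alone 3292 of 15455 (21.3%; 13.9% higher and 7.38% lower). Against Lgr5-GFP-Cre cells 6805 genes were called (45.9%; 25.5% higher and 20.4% lower). The median log2 difference over all genes tested was 0.08. The shares of 19.9% higher and 14.1% lower are the ones to set beside the called members of each list below. Changes were ranked among named genes (unnamed gene models left out) that averaged at least 20 CPM where they were higher, had over 3 counts in the lower group and did not overlap between the groups. Within these limits, the largest increases were in the incretin hormone Gip and in Ghrl, which encodes ghrelin, 257-fold and 248-fold higher. They were followed by the leukocyte glycoprotein gene Cd52, the granin Scg3, the G-protein subunit Gng4, the sodium pump regulator Fxyd6 and the microtubule protein Map1b. Cd52 was at 81.8 and 38.8 CPM in enteroendocrine cells and 0.519 and 0 CPM in Lgr5-GFP-DTR cells (log2 7.81 ± 0.99 SE, edgeR adjusted p = 3.58e-05). Map1b, better known from neurons, was at 68.7 and 36.9 CPM in enteroendocrine cells and 0.416 and 0.636 CPM in Lgr5-GFP-DTR cells (log2 6.64 ± 0.73 SE, edgeR adjusted p = 1.08e-05). Baiap3, a regulator of dense-core vesicle release, was at 170 and 96.7 CPM in enteroendocrine cells and had no count in Lgr5-GFP-DTR cells, at least 848-fold higher against a floor of 3 counts over the group.

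Within the same limits, the largest decreases were smaller in size than these increases. Cyp2e1, a cytochrome P450, was at 1.35 and 4.04 CPM in enteroendocrine cells and 55.2 and 41.2 CPM in Lgr5-GFP-DTR cells (log2 -4.13 ± 0.93 SE, edgeR adjusted p = 0.00277). Dctd, which makes the precursor of thymidine nucleotides, was at 4.45 and 6.07 CPM in enteroendocrine cells and 45.6 and 53.3 CPM in Lgr5-GFP-DTR cells (log2 -3.22 ± 0.32 SE, edgeR adjusted p = 4.29e-06). Bag2, an Hsp70 co-chaperone, was at 1.87 and 2.08 CPM in enteroendocrine cells and 20.9 and 25.6 CPM in Lgr5-GFP-DTR cells. The matrix protein gene Prelp, at 13.4 and 17.1 CPM in enteroendocrine cells and 114 and 122 CPM in Lgr5-GFP-DTR cells, and the urea transporter Slc14a1, at 13.0 and 8.73 CPM against 103 and 53.6 CPM, were in the same set. Each of these 5 genes was also lower against Lgr5-GFP-Cre cells. The secretory cell factor Bhlha15, the protein disulfide isomerase Pdia2 and the Wnt receptor Fzd9 were in the set too, but their differences from Lgr5-GFP-Cre cells were not called, and each was higher in Lgr5-GFP-DTR than in Lgr5-GFP-Cre cells (log2 2.13, 2.80 and 1.81).

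**Figure D2:**
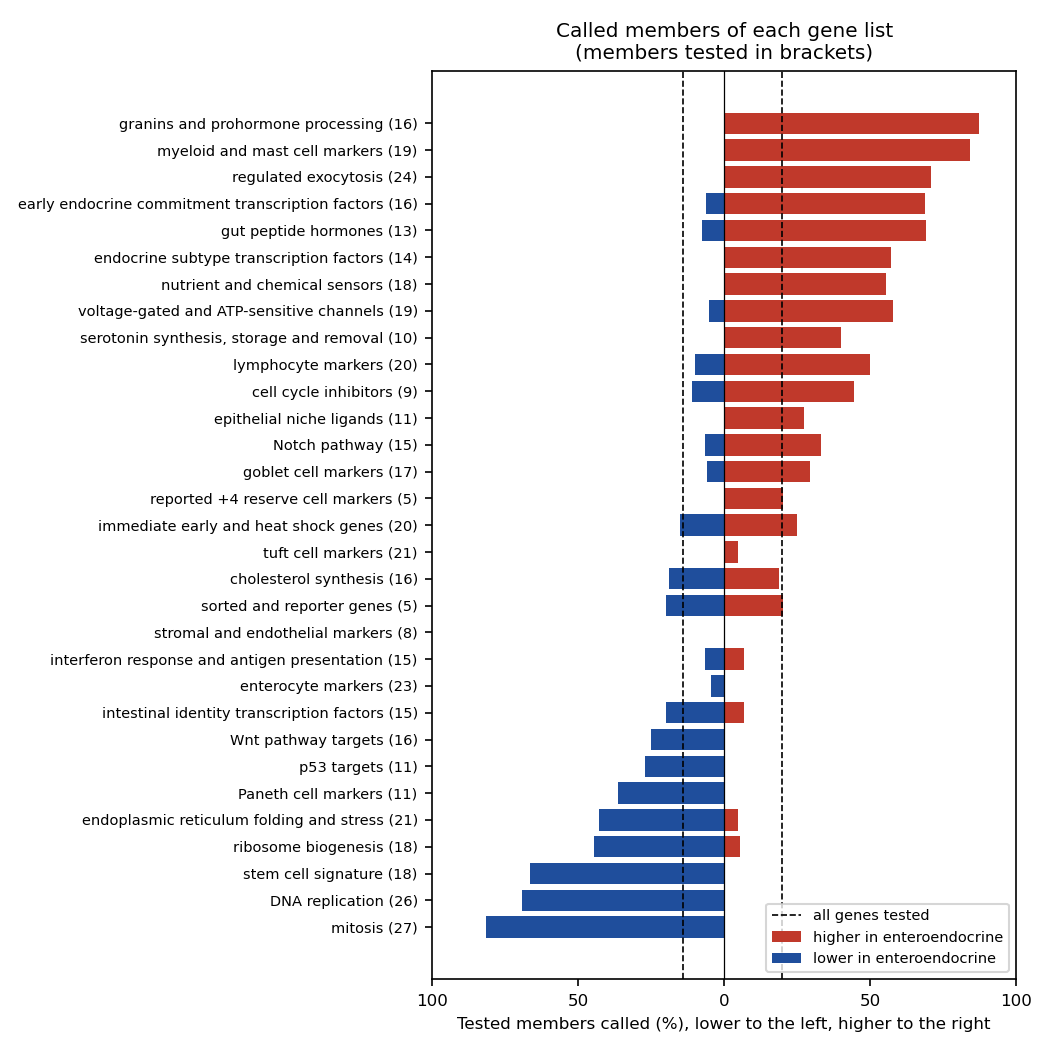
Percent of tested members of each gene list called higher (red, right) or lower (blue, left) in enteroendocrine than in Lgr5-GFP-DTR cells, with the number tested in brackets. Dashed lines mark all genes tested, 19.9% higher and 14.1% lower. Granin, myeloid and mast cell, exocytosis, endocrine transcription factor, hormone, sensor and ion channel lists lie far to the right. Mitosis, replication and stem lists lie far to the left.

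The 14 listed gut hormone genes summed to 23128 and 11950 CPM in the enteroendocrine libraries and to 276 and 253 CPM in the Lgr5-GFP-DTR libraries. In the enteroendocrine libraries these sums were below those of 11 Paneth markers (64532 and 54925 CPM) and 17 goblet markers (30684 and 15307 CPM). Of 13 hormone genes tested, 9 were called higher, 1 was called lower and 3 were not called, against 19.9% of all genes higher, and all 9 remained higher with each enteroendocrine library alone. The list's median log2 difference was 4.36, and 3.97 with genes at or under 3 counts set to their bound. For Gip, Cck, Gcg and Tac1, near the shared edge described above, a call with each library alone may not be separate evidence. Ghrl, Sct and Sst lay further above that edge. Gip was at 17232 and 7867 CPM in enteroendocrine cells and at 40.9 and 56.9 CPM in Lgr5-GFP-DTR cells (log2 8.003 ± 0.74 SE, edgeR adjusted p = 2.16e-06). Ghrl was at 2720 and 1837 CPM in enteroendocrine cells and 14.5 and 3.81 CPM in Lgr5-GFP-DTR cells (log2 7.95 ± 0.56 SE, edgeR adjusted p = 1.52e-07). The enteroendocrine libraries lay above the Lgr5-GFP-DTR libraries without overlap for all 9 genes. In either direction, 8801 of 14837 genes tested (59.3%) did not overlap between the groups.

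Several other hormone genes were also called higher. Cck, the gallbladder and satiety hormone whose E-box promoter is shown above, was at 810 and 365 CPM in enteroendocrine cells and 18.2 and 11.1 CPM in Lgr5-GFP-DTR cells (log2 5.32 ± 0.45 SE, edgeR adjusted p = 8.70e-07). Secretin, encoded by Sct, stimulates bicarbonate secretion by the pancreas. Sct was at 940 and 481 CPM in enteroendocrine cells and 124 and 106 CPM in Lgr5-GFP-DTR cells (log2 2.63 ± 0.49 SE, edgeR adjusted p = 7.10e-04). In Lgr5-GFP-Cre cells it was at 9.65 to 26.4 CPM. Gcg, the precursor of glucagon-like peptides, was at 413 and 184 CPM in enteroendocrine cells and 21.4 and 27.9 CPM in Lgr5-GFP-DTR cells (log2 3.60 ± 0.49 SE, edgeR adjusted p = 6.73e-05). Sst, the inhibitory hormone somatostatin, was at 544 and 994 CPM in enteroendocrine cells and 38.6 and 25.3 CPM in Lgr5-GFP-DTR cells (log2 4.59 ± 0.61 SE, edgeR adjusted p = 5.06e-05). Sst and Iapp were the hormone genes that were higher in enteroendocrine replicate 2, and the 8 others above 1 CPM were higher in replicate 1.

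The hormone genes that follow were at lower levels or had no count. Pyy was at 18.6 and 9.65 CPM in enteroendocrine cells and 1.14 and 0 CPM in Lgr5-GFP-DTR cells, and was called higher (log2 4.60 ± 1.03 SE, edgeR adjusted p = 0.00255). Nts, encoding neurotensin, was at 0.703 and 0.308 CPM in enteroendocrine cells and at 0.104 and 0.106 CPM in Lgr5-GFP-DTR cells, and Insl5, a colonic hormone, had no count in any of the 4 libraries. Gast had no count in Lgr5-GFP-DTR cells and was at 0.527 and 0.231 CPM in enteroendocrine cells, and was not called. Penk, the enkephalin precursor and the gene called lower, rested on 15 counts in Lgr5-GFP-DTR replicate 1 and had none in the other 3 libraries, and its call was not kept with either enteroendocrine library alone.

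**Figure D3:**
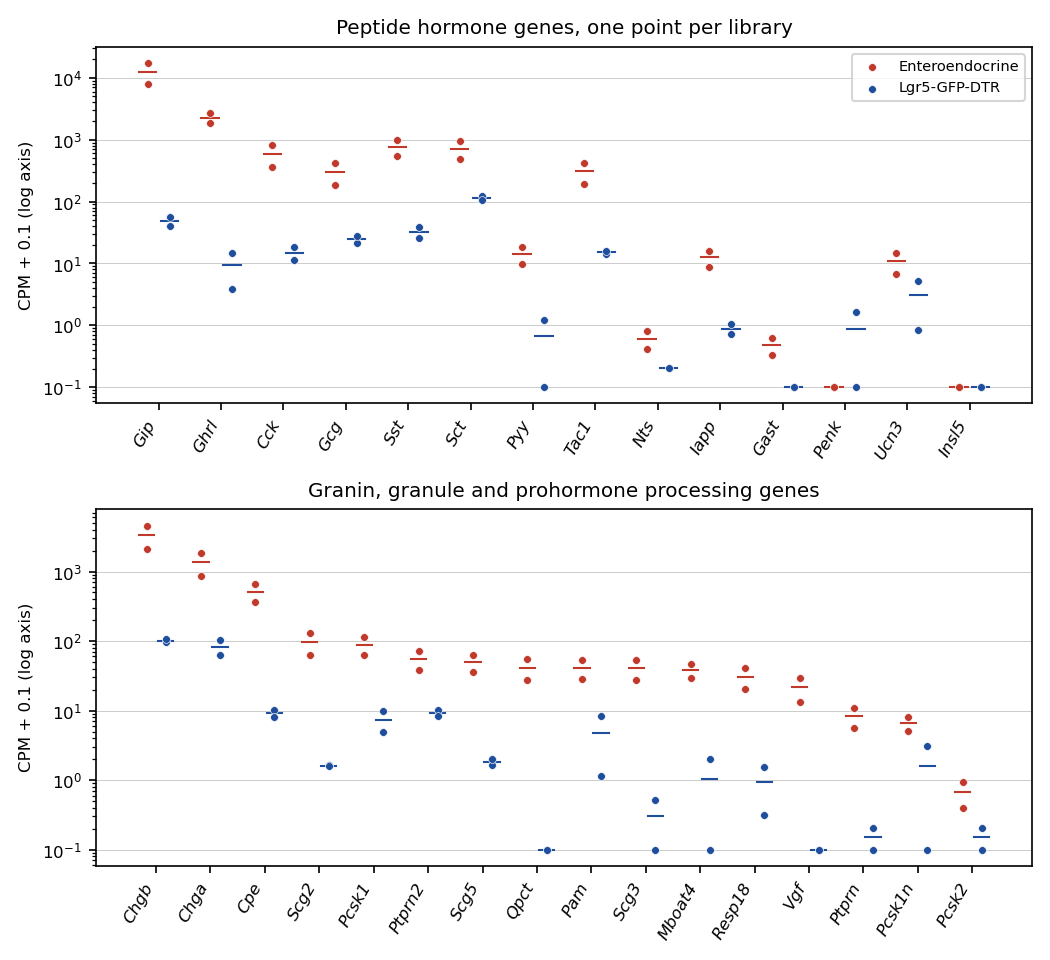
CPM + 0.1 on a log axis for each hormone gene (top) and granin, granule or processing gene (bottom), 1 point per library and a bar at the mean, enteroendocrine (red) left of Lgr5-GFP-DTR (blue). Gip is at 17232 and 7867 CPM in enteroendocrine cells, and all 14 genes of the lower panel that were called lie higher in both enteroendocrine libraries.

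The machinery that packs and trims prohormones was higher throughout. Of 16 granin, granule and processing genes, 14 were called higher and none lower, and all 14 remained so with each enteroendocrine library alone (median log2 difference 5.11). Chga, the granin used as a general endocrine marker, was at 1871 and 855 CPM in enteroendocrine cells and 63.4 and 102 CPM in Lgr5-GFP-DTR cells (log2 4.04 ± 0.60 SE, edgeR adjusted p = 1.25e-04). Chgb was at 4581 and 2140 CPM in enteroendocrine cells and 96.5 and 107 CPM in Lgr5-GFP-DTR cells (log2 5.05 ± 0.56 SE, edgeR adjusted p = 1.22e-05). Scg2 was at 131 and 63.9 CPM in enteroendocrine cells and 1.56 and 1.48 CPM in Lgr5-GFP-DTR cells (log2 5.996 ± 0.41 SE, edgeR adjusted p = 1.52e-07). The cyclic AMP response elements of the last pair of promoters are those shown above. Chga and Chgb lay near the shared edge of the enteroendocrine libraries, where a call with each library alone may not be separate evidence. Cpe and Pcsk1 lay further above that edge.

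Processing enzymes followed the granins. Cpe, the carboxypeptidase that trims peptide ends, was at 664 and 363 CPM in enteroendocrine cells and 10.2 and 8.05 CPM in Lgr5-GFP-DTR cells (log2 5.82 ± 0.46 SE, edgeR adjusted p = 3.37e-07). Pcsk1, a prohormone convertase, was at 113 and 63.2 CPM in enteroendocrine cells and 9.77 and 4.77 CPM in Lgr5-GFP-DTR cells (log2 3.60 ± 0.41 SE, edgeR adjusted p = 1.42e-05). The other convertase, Pcsk2, stayed under 1 CPM in all 4 libraries and was not called, nor was Pcsk1n. Mboat4, the acyltransferase that activates ghrelin, was at 47.0 and 29.5 CPM in enteroendocrine cells and 0 and 1.91 CPM in Lgr5-GFP-DTR cells. Qpct, which closes the ends of peptides as pyroglutamate, was at 55.7 and 27 CPM in enteroendocrine cells and had no count in Lgr5-GFP-DTR cells, at least 263-fold higher. Every member above 1 CPM in this list was higher in enteroendocrine replicate 1 than in replicate 2, by a median of 1.93-fold.

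Genes of regulated exocytosis were called higher for 17 of 24 members and lower for none, and 14 remained higher with each enteroendocrine library alone. Scgn, a calcium sensor of endocrine cells, was at 384 and 206 CPM in enteroendocrine cells and 4.36 and 4.98 CPM in Lgr5-GFP-DTR cells (log2 5.98 ± 0.55 SE, edgeR adjusted p = 2.16e-06). Cplx2, a complexin that clamps vesicle fusion, was at 51.8 and 25.8 CPM in enteroendocrine cells and 0.312 and 1.06 CPM in Lgr5-GFP-DTR cells. Rab3d and Rph3al, which serve secretory granules of many cell types, were not called: Rab3d was at 206 and 156 CPM in enteroendocrine cells and at 142 and 139 CPM in Lgr5-GFP-DTR cells. Rab27a, a granule docking GTPase, was at 26.1 and 56.1 CPM in enteroendocrine cells and 12.6 and 18.4 CPM in Lgr5-GFP-DTR cells, and was called higher with both libraries but not with each alone.

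Transcription factors of endocrine commitment were higher in 11 of 16 cases, and these 11 remained higher with each enteroendocrine library alone. Neurog3, the factor that starts the endocrine programme, was at 75.5 and 36.4 CPM in enteroendocrine cells and 4.47 and 3.18 CPM in Lgr5-GFP-DTR cells (log2 3.87 ± 0.82 SE, edgeR adjusted p = 0.00185). Neurod1, its target, was at 204 and 99.0 CPM in enteroendocrine cells and 1.87 and 3.28 CPM in Lgr5-GFP-DTR cells (log2 5.88 ± 0.66 SE, edgeR adjusted p = 1.22e-05). Insm1, a zinc-finger factor of endocrine differentiation, was at 71.5 and 39.3 CPM in enteroendocrine cells and 2.18 and 1.27 CPM in Lgr5-GFP-DTR cells. Rfx6 was at 111 and 56.7 CPM in enteroendocrine cells and 0 and 3.39 CPM in Lgr5-GFP-DTR cells. Myt1, Pax4, Nkx2-2, Neurod2, Rfx3, Runx1t1 and St18 made up the rest.

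The factors that act before the endocrine choice did not share this direction. Atoh1, required for all secretory cells, was at 37.7 and 25.0 CPM in enteroendocrine cells and 72.5 and 49.8 CPM in Lgr5-GFP-DTR cells, and was called lower (log2 -0.97 ± 0.32 SE, edgeR adjusted p = 0.0263). The call was lost with enteroendocrine replicate 1 alone (edgeR adjusted p = 0.200). In Lgr5-GFP-Cre cells it was at 35.1 to 39.96 CPM, where the difference was not called (log2 -0.29, edgeR adjusted p = 0.433). Gfi1, a repressor of the endocrine fate in secretory progenitors, was at 5.21 and 3.23 CPM in enteroendocrine cells and 18.4 and 4.45 CPM in Lgr5-GFP-DTR cells, and was not called. Hes6 and Sox4 were not called either, and Sox4 was at 133 and 124 CPM in enteroendocrine cells and 248 and 137 CPM in Lgr5-GFP-DTR cells.

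Factors that specify endocrine subtypes were called higher for 8 of 14 members, 6 of them with each enteroendocrine library alone. Isl1, a LIM homeodomain factor, was at 204 and 120 CPM in enteroendocrine cells and 1.14 and 4.34 CPM in Lgr5-GFP-DTR cells (log2 5.89 ± 0.53 SE, edgeR adjusted p = 1.79e-06). Pax6, which directs hormone choice, was at 51.3 and 25.3 CPM in enteroendocrine cells and had no count in Lgr5-GFP-DTR cells, at least 244-fold higher. Fev and Lmx1a, known from serotonin-producing cells, were also higher: Fev was at 66.9 and 33.2 CPM in enteroendocrine cells and 5.61 and 3.50 CPM in Lgr5-GFP-DTR cells, and Lmx1a was at 38.4 and 17.0 CPM in enteroendocrine cells and 0.104 and 1.06 CPM in Lgr5-GFP-DTR cells. Hhex, a factor of somatostatin cells, was at 9.54 and 14.9 CPM in enteroendocrine cells and 0 and 3.60 CPM in Lgr5-GFP-DTR cells, and like Sst it was higher in enteroendocrine replicate 2. Foxa1, Foxa2, Pdx1, Mnx1, Nkx6-3 and Prox1 were not called.

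Serotonin is made by the enterochromaffin subtype. Tph1, the rate-limiting hydroxylase, was at 220 and 97.8 CPM in enteroendocrine cells and 8.41 and 10.8 CPM in Lgr5-GFP-DTR cells (log2 4.05 ± 0.61 SE, edgeR adjusted p = 1.30e-04). Gch1, which begins synthesis of its cofactor, was at 190 and 102 CPM in enteroendocrine cells and 18.8 and 13.5 CPM in Lgr5-GFP-DTR cells (log2 3.18 ± 0.45 SE, edgeR adjusted p = 8.05e-05). Ddc and the vesicle transporter Slc18a2 were the other called members, 4 of 10 in all, and 3 of the 4 remained higher with each enteroendocrine library alone. The later cofactor enzymes Pts and Qdpr, the degrading enzymes Maoa and Maob and the reuptake transporter Slc6a4 were not called. Slc6a4 was at 8.84 and 19.95 CPM in enteroendocrine cells and 26.6 and 33.4 CPM in Lgr5-GFP-DTR cells (log2 -1.05 ± 0.40 SE, edgeR adjusted p = 0.0509).

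Receptors through which endocrine cells sense the gut content were called higher for 10 of 18 members and lower for none, and 6 remained with each enteroendocrine library alone. Ffar2, a short-chain fatty acid receptor, was at 85.2 and 46.4 CPM in enteroendocrine cells and 9.14 and 7.42 CPM in Lgr5-GFP-DTR cells (log2 2.99 ± 0.43 SE, edgeR adjusted p = 9.74e-05). The fatty acid amide receptor Gpr119, at 7.44 and 3.96 CPM in enteroendocrine cells, had no count in Lgr5-GFP-DTR cells and was at least 36.2-fold higher, and the somatostatin receptor Sstr5 was at least 43.4-fold higher. Ffar3, the other short-chain fatty acid receptor, was at 14.3 and 87.6 CPM in enteroendocrine cells and 48.8 and 50.6 CPM in Lgr5-GFP-DTR cells, so the groups overlapped and it was not called. In Lgr5-GFP-Cre cells Ffar3 stayed under 1 CPM. The glucose transporter Slc5a1 was at 219 and 151 CPM in enteroendocrine cells and 212 and 154 CPM in Lgr5-GFP-DTR cells (log2 0.02 ± 0.47 SE). Trpa1, the irritant-gated channel, was at 49.9 and 22.3 CPM in enteroendocrine cells and 0.623 and 14 CPM in Lgr5-GFP-DTR cells, called with both libraries but not with each alone.

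Ion channels that make endocrine cells electrically excitable were called higher for 11 of 19 members, all of them also with each enteroendocrine library alone. Abcc8, the sulfonylurea receptor of the ATP-sensitive potassium channel, was at 36.0 and 27.9 CPM in enteroendocrine cells, and 1 count was found in Lgr5-GFP-DTR cells. Cacna2d1, a calcium channel subunit, was at 37.9 and 17.9 CPM in enteroendocrine cells and had no count in Lgr5-GFP-DTR cells, at least 177-fold higher. Kcnh6 was at 23.4 and 13.9 CPM in enteroendocrine cells and 0.623 and 0.953 CPM in Lgr5-GFP-DTR cells. Of the other members, 1 was called lower.

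The stem cell signature was lower in enteroendocrine cells. Of 18 members, 12 were called lower and none higher, against 14.1% of all genes lower, and 7 remained lower with each enteroendocrine library alone (median log2 difference -1.31). Ascl2, the Wnt-driven stem cell regulator, was at 40.6 and 41.5 CPM in enteroendocrine cells and 184 and 68.7 CPM in Lgr5-GFP-DTR cells (log2 -1.62 ± 0.41 SE, edgeR adjusted p = 0.00619). Igfbp4, a secreted growth factor binding protein, was at 44.2 and 30.8 CPM in enteroendocrine cells and 242 and 171 CPM in Lgr5-GFP-DTR cells (log2 -2.46 ± 0.32 SE, edgeR adjusted p = 4.73e-05). Olfm4 was at 729 and 613 CPM in enteroendocrine cells and 2707 and 2947 CPM in Lgr5-GFP-DTR cells (log2 -2.08 ± 0.70 SE, edgeR adjusted p = 0.0300), a call lost with either enteroendocrine library alone. Smoc2 was at 194 and 167 CPM in enteroendocrine cells and 442 and 444 CPM in Lgr5-GFP-DTR cells. Each of these 4 genes was lower in both enteroendocrine libraries than in either Lgr5-GFP-DTR library. Of all genes tested, 59.3% did not overlap in one direction or the other.

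Several members of the signature did not separate the groups. Sox9, which Paneth, tuft and endocrine cells also express, was at 196 and 435 CPM in enteroendocrine cells and 395 and 527 CPM in Lgr5-GFP-DTR cells, with overlap. Myb was at 116 and 120 CPM in enteroendocrine cells and 97.8 and 135 CPM in Lgr5-GFP-DTR cells, and Prom1 at 196 and 237 CPM against 183 and 284 CPM. Slc12a2, a chloride transporter of crypt cells, was at 351 and 357 CPM in enteroendocrine cells and 489 and 453 CPM in Lgr5-GFP-DTR cells and was not called, but it was called lower against the 733 to 857 CPM of Lgr5-GFP-Cre cells (log2 -1.20, edgeR adjusted p = 6.65e-04). Against that line 14 of the 18 members were called lower.

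Of 16 Wnt target genes, 4 were called lower and none higher, and 3 remained lower with each enteroendocrine library alone. Myc was at 79.3 and 63.1 CPM in enteroendocrine cells and 218 and 373 CPM in Lgr5-GFP-DTR cells (log2 -2.05 ± 0.33 SE, edgeR adjusted p = 2.25e-04). Sp5, a direct target of the Wnt effector complex, was at 13.6 and 7.88 CPM in enteroendocrine cells and 41.0 and 27.9 CPM in Lgr5-GFP-DTR cells (log2 -1.69 ± 0.30 SE, edgeR adjusted p = 4.82e-04). Tcf7 was also lower, and Apcdd1 rested on 14 counts in Lgr5-GFP-DTR replicate 1 alone. Cd44 and Lgr4 were not called, and Lgr4, the Lgr5 relative found throughout the epithelium, was at 98.7 and 83.5 CPM in enteroendocrine cells and 88.3 and 72.1 CPM in Lgr5-GFP-DTR cells.

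Of 15 Notch pathway genes, 5 were called higher, 1 lower and 9 were not called, and 3 of the 5 and the 1 remained with each enteroendocrine library alone. In either direction 40% of the Notch pathway genes were called, against 34.0% of all genes tested. Against Lgr5-GFP-Cre cells 3 were called higher and 3 lower. The ligand Dll1 was at 75.9 and 70.6 CPM in enteroendocrine cells and 21.7 and 25.8 CPM in Lgr5-GFP-DTR cells (log2 1.62 ± 0.31 SE, edgeR adjusted p = 9.63e-04). The ligand Dll4 was at 61.9 and 36.7 CPM in enteroendocrine cells and 9.45 and 10.4 CPM in Lgr5-GFP-DTR cells (log2 2.31 ± 0.52 SE, edgeR adjusted p = 0.00283). Jag2, the receptor Notch2 and the nuclear mediator Rbpj were the other members called higher. Hes5, a Notch target, was at 0 and 0.154 CPM in enteroendocrine cells and 8.31 and 2.65 CPM in Lgr5-GFP-DTR cells and was called lower, while the target Hes1, at 87.6 and 58.1 CPM in enteroendocrine cells and 163 and 77.1 CPM in Lgr5-GFP-DTR cells, was not called. Dll1 was lower in Lgr5-GFP-DTR than in Lgr5-GFP-Cre cells, where it was at 48.6 to 67.6 CPM, and it was not called in enteroendocrine against Lgr5-GFP-Cre cells (log2 0.35, edgeR adjusted p = 0.304).

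Cell cycle genes were lower in enteroendocrine cells. Of 27 mitosis genes, 22 were called lower and none higher, and 18 remained lower with each enteroendocrine library alone (median log2 difference -1.17). Ccnb1, the mitotic cyclin, was at 34.1 and 44.7 CPM in enteroendocrine cells and 162 and 223 CPM in Lgr5-GFP-DTR cells (log2 -2.29 ± 0.26 SE, edgeR adjusted p = 1.34e-05). Its kinase Cdk1 was at 48.2 and 45.2 CPM in enteroendocrine cells and 166 and 188 CPM in Lgr5-GFP-DTR cells (log2 -1.92 ± 0.27 SE, edgeR adjusted p = 8.86e-05). Mki67, the proliferation antigen, was at 81.4 and 88.8 CPM in enteroendocrine cells and 107 and 129 CPM in Lgr5-GFP-DTR cells and was not called (log2 -0.47 ± 0.21 SE, edgeR adjusted p = 0.0914).

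DNA replication genes showed smaller differences from Lgr5-GFP-DTR cells than mitosis genes did. Of 26 members, 18 were called lower and none higher, and 9 remained lower with each enteroendocrine library alone (median log2 difference -0.92). Prim1, the primase, was at 25.1 and 25.4 CPM in enteroendocrine cells and 61.1 and 85.4 CPM in Lgr5-GFP-DTR cells (log2 -1.54 ± 0.25 SE, edgeR adjusted p = 2.53e-04). Fen1, which trims Okazaki fragments, was at 53.9 and 45.3 CPM in enteroendocrine cells and 145 and 142 CPM in Lgr5-GFP-DTR cells. Lig1 and the helicase subunit Mcm7 were not called, and Mcm7 was at 123 and 89.3 CPM in enteroendocrine cells and 156 and 114 CPM in Lgr5-GFP-DTR cells. In Lgr5-GFP-Cre cells Mcm7 was at 241 to 281 CPM, and 25 of the 26 replication genes were called lower in enteroendocrine cells against that line. There the order was reversed, with a median log2 difference of -1.45 for replication and -0.95 for mitosis genes. Of the 27 mitosis genes, 21 were called lower against that line.

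Cell cycle inhibitors were called higher for 4 of 9 members and lower for 1, and none of the 5 calls remained with each enteroendocrine library alone. Cdkn2b, encoding p15, was the member called lower, at 26.8 and 24.6 CPM in enteroendocrine cells and 41.8 and 52.5 CPM in Lgr5-GFP-DTR cells. Cdkn1c, encoding p57, was at 237 and 160 CPM in enteroendocrine cells and 78.1 and 41.3 CPM in Lgr5-GFP-DTR cells (log2 1.73 ± 0.55 SE, edgeR adjusted p = 0.0213). Cdkn1b, encoding p27, was at 31.3 and 25.3 CPM in enteroendocrine cells and 16.2 and 17.5 CPM in Lgr5-GFP-DTR cells. Cdkn1c was at 7.47 to 11.6 CPM in Lgr5-GFP-Cre cells, below either group.

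Ribosome biogenesis genes were called lower for 8 of 18 members and higher for 1, and 2 and 1 of these remained with each enteroendocrine library alone. Pes1, a factor of large subunit assembly, was at 40.05 and 52.2 CPM in enteroendocrine cells and 124 and 114 CPM in Lgr5-GFP-DTR cells (log2 -1.37 ± 0.32 SE, edgeR adjusted p = 0.00379). The abundant nucleolar genes Ncl and Npm1 were not called.

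**Figure D4:**
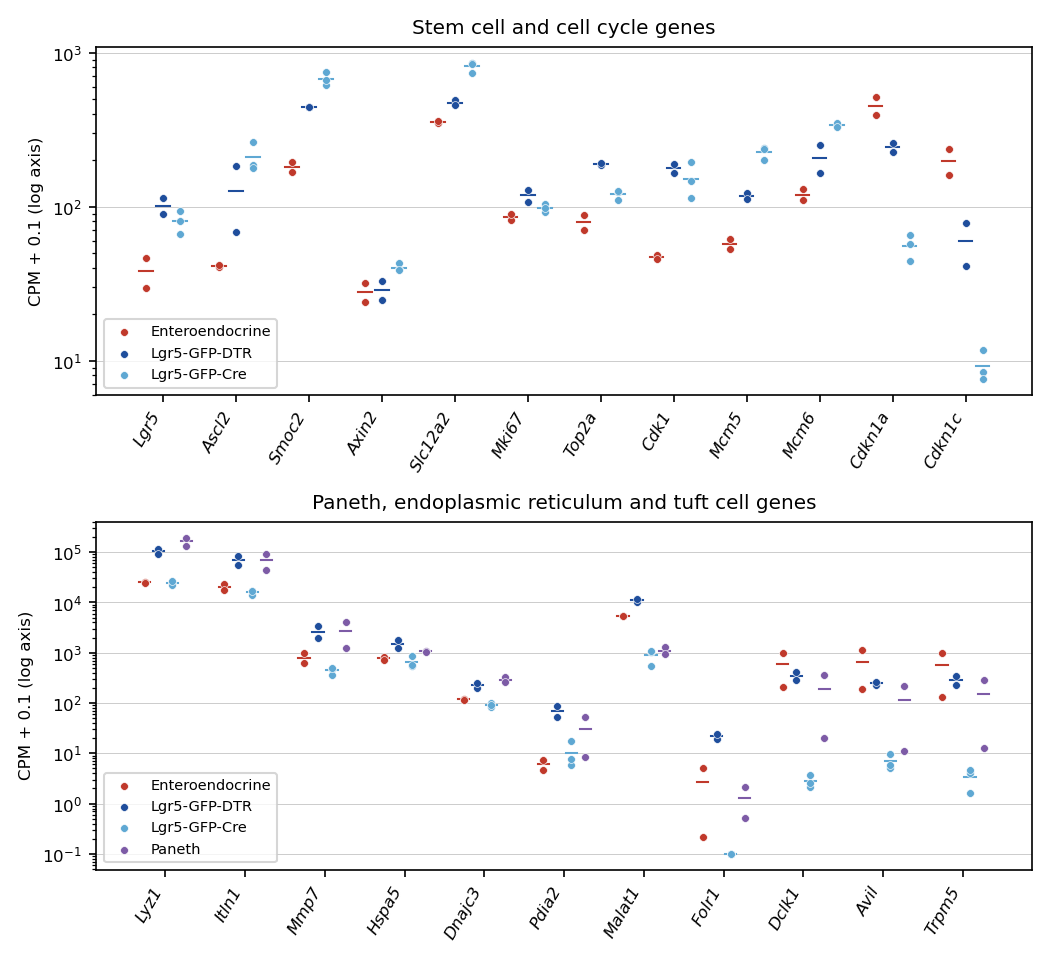
CPM + 0.1 on a log axis, 1 point per library and a bar at the mean: stem cell and cell cycle genes (top) in enteroendocrine, Lgr5-GFP-DTR and Lgr5-GFP-Cre libraries, and Paneth, endoplasmic reticulum and tuft genes (bottom) with Paneth libraries added. Smoc2 and Cdk1 lie lower in enteroendocrine than in both stem cell lines, while Lyz1 is at 25796 and 24246 CPM in enteroendocrine cells, near Lgr5-GFP-Cre and below Lgr5-GFP-DTR cells.

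Genes of protein folding in the endoplasmic reticulum split by the stem cell line used. Against Lgr5-GFP-DTR cells 9 of 21 were called lower in enteroendocrine cells and 1 higher, with 4 of the 9 remaining with each enteroendocrine library alone. Against Lgr5-GFP-Cre cells 2 were called lower and 7 higher, and 11 of the 21 were higher in Lgr5-GFP-DTR than in Lgr5-GFP-Cre cells. Pdia4, a disulfide isomerase, was at 99.6 and 107 CPM in enteroendocrine cells and 247 and 320 CPM in Lgr5-GFP-DTR cells (log2 -1.46 ± 0.21 SE, edgeR adjusted p = 8.41e-05), and it was also lower against Lgr5-GFP-Cre cells. Edem1, which hands misfolded proteins to degradation, was at 66.2 and 62.2 CPM in enteroendocrine cells and 136 and 167 CPM in Lgr5-GFP-DTR cells, but was not called against the 73.2 to 74.7 CPM of Lgr5-GFP-Cre cells. Atf4, the stress-response factor, was at 486 and 322 CPM in enteroendocrine cells and 236 and 234 CPM in Lgr5-GFP-DTR cells.

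The Paneth genes Lyz1 and Itln1 and a pair of defensin gene models were among the 6 most abundant genes called lower. Of 11 Paneth markers, 4 were called lower (Lyz1, Itln1, Mmp7 and Habp2), of which Lyz1 and Habp2 remained with each enteroendocrine library alone. The summed level of the list was 64532 and 54925 CPM in enteroendocrine cells, against 234043 and 167851 CPM in Lgr5-GFP-DTR cells. It was 40808 to 50279 CPM in Lgr5-GFP-Cre cells, where none of the 11 was called lower in enteroendocrine cells. Lyz1, with the values above, differed by log2 -2.06 ± 0.49 SE against Lgr5-GFP-DTR (edgeR adjusted p = 0.00376) and by 0.01 against Lgr5-GFP-Cre cells (edgeR adjusted p = 0.991). Itln1, a lectin of Paneth granules, was at 23547 and 17657 CPM in enteroendocrine cells and 83772 and 54499 CPM in Lgr5-GFP-DTR cells. The defensin gene models Gm15284 and Gm14851, near-identical to other defensins so that reads may be split among copies, were also called lower.

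Goblet transcripts were called higher for 5 of 17 markers and lower for 1, and 2 of the 5 remained with each enteroendocrine library alone. Muc2, the gel-forming mucin, was at 848 and 550 CPM in enteroendocrine cells and 187 and 113 CPM in Lgr5-GFP-DTR cells (log2 2.22 ± 0.36 SE, edgeR adjusted p = 2.54e-04). Fcgbp, a mucus component, was at 1690 and 875 CPM in enteroendocrine cells and 238 and 87.5 CPM in Lgr5-GFP-DTR cells. In either direction 35.3% of the 17 were called, against 34.0% of all genes tested. The summed level of the 17 was 30684 and 15307 CPM in enteroendocrine cells and 11547 and 6979 CPM in Lgr5-GFP-DTR cells. Foxa3 was the member called lower, and its call was not kept with each enteroendocrine library alone.

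Tuft cells share the CD24-high gate with endocrine cells. All 21 tuft markers were higher in enteroendocrine replicate 2 than in replicate 1, with a median replicate 1 to replicate 2 ratio of 0.212. Their summed level was 1612 and 8646 CPM in enteroendocrine cells and 2425 and 3342 CPM in Lgr5-GFP-DTR cells, with 51.6 to 69.9 CPM in Lgr5-GFP-Cre cells. Dclk1 was at 204 and 985 CPM in enteroendocrine cells and 284 and 417 CPM in Lgr5-GFP-DTR cells, so the groups overlapped. Only Plcg2 was called (log2 1.63 ± 0.57 SE, edgeR adjusted p = 0.0345), and its call was lost with enteroendocrine replicate 1 alone (edgeR adjusted p = 0.778). All 21 were called higher against Lgr5-GFP-Cre cells. Atp2a3, a calcium pump and one of the most abundant genes called higher, followed the same order, at 597 and 2254 CPM in enteroendocrine cells and 361 and 384 CPM in Lgr5-GFP-DTR cells, and its call was not kept with each enteroendocrine library alone.

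Leukocyte transcripts were present in the enteroendocrine libraries. Of 19 myeloid and mast cell markers tested, 16 were called higher, 14 of them with each enteroendocrine library alone, and 15 of the 21 listed had no count in Lgr5-GFP-DTR cells. Il1b was at 104 and 50.4 CPM in enteroendocrine cells, at least 491-fold higher, its decoy receptor Il1r2 was at 108 and 49.8 CPM, at least 503-fold higher, and the mast cell protease Mcpt1 was at 78.4 and 34.9 CPM, at least 360-fold higher. Of 20 lymphocyte markers, 10 were called higher and 2 lower, and 6 and 0 of these remained with each enteroendocrine library alone. Igj, of plasma cells, was at 59.3 and 26.4 CPM in enteroendocrine cells and had no count in Lgr5-GFP-DTR cells, while Cd8a had no count in enteroendocrine cells and 45 counts in Lgr5-GFP-DTR replicate 1. The summed lymphocyte level was 356 and 222 CPM in enteroendocrine cells and 124 and 53.5 CPM in Lgr5-GFP-DTR cells, and that of the myeloid and mast cell list was 847 and 649 CPM against 160 and 246 CPM. Most of these markers, like most hormone genes, were higher in enteroendocrine replicate 1, in 17 of 18 myeloid and mast and 15 of 16 lymphocyte markers above 1 CPM. The exceptions were Siglec5, with 94 and 5559 counts in enteroendocrine cells, and Ptprc, with 724 and 1925 counts. Both had the replicate order of the tuft markers, and the sums above include them. The part of leukocyte transcripts in the differences of genes that leukocytes also express, such as Cd52 and Lsp1, was not tested. Stromal and endothelial markers summed to at most 1.64 CPM in any of the 4 libraries, and 0 of 8 were called by edgeR. None of the defining enteric glia and neuron markers Sox10, Gfap, Nos1 and Vip was tested for lack of counts, although Ret and Elavl4, which endocrine cells are also known to express, were higher.

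Immediate early and heat shock genes were examined because the enzymes differed. Of 20 genes, 5 were called higher (Fosb, Junb, Ier2, Atf3 and Klf6) and 3 lower (Hspa8, Dnajb1 and Hsph1), shares near those of all genes tested (19.9% higher and 14.1% lower). With each enteroendocrine library alone, 1 remained in each direction. Fosb was at 294 and 158 CPM in enteroendocrine cells and 46.1 and 38.9 CPM in Lgr5-GFP-DTR cells (log2 2.41 ± 0.42 SE, edgeR adjusted p = 4.57e-04). In Paneth cells, also released with Dispase, Fosb was at 283 and 106 CPM, and in the TrypLE-released Lgr5-GFP-Cre and Bmi1-GFP cells at 24.8 to 31.7 CPM and 87.5 to 207 CPM. Hspa8, the constitutive Hsp70, was at 1262 and 1511 CPM in enteroendocrine cells and 3534 and 5371 CPM in Lgr5-GFP-DTR cells (log2 -1.68 ± 0.34 SE, edgeR adjusted p = 0.00120). It was at 1084 and 1539 CPM in Paneth cells, 1861 to 3927 CPM in Lgr5-GFP-Cre cells and 1149 to 1865 CPM in Bmi1-GFP cells. Fos was at 1700 and 1103 CPM in enteroendocrine cells and 789 and 933 CPM in Lgr5-GFP-DTR cells and was not called. Enzyme, time and cell type cannot be told apart in these values.

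**Figure D5:**
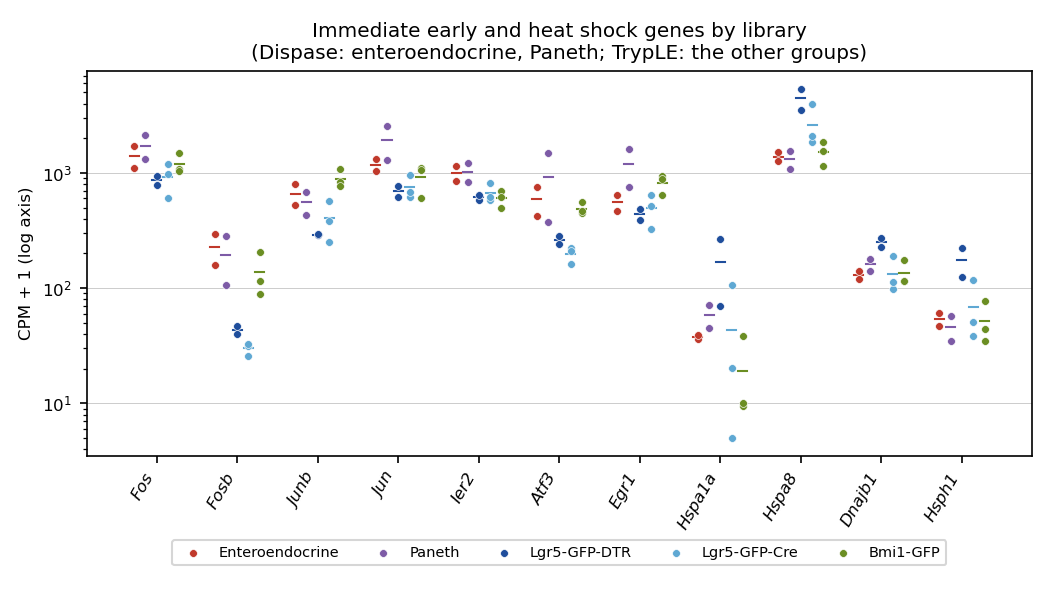
CPM + 1 on a log axis for immediate early and heat shock genes, 1 point per library and a bar at the mean, with the Dispase-released enteroendocrine and Paneth libraries left of the TrypLE-released Lgr5-GFP-DTR, Lgr5-GFP-Cre and Bmi1-GFP libraries. Fosb is at 294 and 158 CPM in enteroendocrine and 46.1 and 38.9 CPM in Lgr5-GFP-DTR cells, and Bmi1-GFP libraries overlap the enteroendocrine ones.

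Of 15 intestinal identity transcription factors, 3 were called lower (Cdx1, Gata5 and Isx) and 1 higher (Klf4), and only the Klf4 call remained with each enteroendocrine library alone. Against Lgr5-GFP-Cre cells 11 of the 15 were called lower and 2 higher (median log2 difference -0.93). Cdx1 was at 304 and 452 CPM in enteroendocrine cells and 639 and 549 CPM in Lgr5-GFP-DTR cells (log2 -0.65 ± 0.24 SE, edgeR adjusted p = 0.0439). Elf3, the epithelial factor, was at 718 and 670 CPM in enteroendocrine cells and 817 and 865 CPM in Lgr5-GFP-DTR cells and was not called. Against Lgr5-GFP-DTR cells 26.7% of the 15 factors were called in either direction, and 34.0% of all genes tested. Among 23 enterocyte markers 1 was called lower, a call not kept with each enteroendocrine library alone, and 7 were called lower against Lgr5-GFP-Cre cells.

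Among 5 genes reported as markers of the reserve cells at the +4 position, only Bmi1 was called, at 25.8 and 29.6 CPM in enteroendocrine cells and 19.5 and 16.5 CPM in Lgr5-GFP-DTR cells (log2 0.62 ± 0.18 SE, edgeR adjusted p = 0.0126). The call was not kept with each enteroendocrine library alone. Hopx was at 445 and 417 CPM in enteroendocrine cells and 421 and 418 CPM in Lgr5-GFP-DTR cells, and Lrig1 at 82.6 and 66.8 CPM against 72.8 and 54.2 CPM. Tert, the telomerase subunit, was detected in replicate 2 of each group only. The called member was 20% of the list, against 19.9% of all genes called higher.

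Niche ligands were called higher for 3 of 11 members, 2 of them with each enteroendocrine library alone. Areg, an epidermal growth factor receptor ligand, was at 139 and 69.2 CPM in enteroendocrine cells and 7.48 and 15.4 CPM in Lgr5-GFP-DTR cells (log2 3.19 ± 0.54 SE, edgeR adjusted p = 3.26e-04). Wnt3, the Paneth cell Wnt, was at 53.5 and 35.4 CPM in enteroendocrine cells and 114 and 61.8 CPM in Lgr5-GFP-DTR cells and was not called. Wnt6 was at 0.995 and 2.38 CPM in enteroendocrine cells with no count in Lgr5-GFP-DTR cells. Called members were 27.3% of the list, against 19.9% of all genes called higher.

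Among 11 p53 targets 3 were called lower: Aen was at 13.4 and 12.9 CPM in enteroendocrine cells and 57.4 and 39.4 CPM in Lgr5-GFP-DTR cells (log2 -1.88 ± 0.28 SE, edgeR adjusted p = 1.22e-04), and Phlda3 and Ccng1 were the others, of which Ccng1 was not kept with each enteroendocrine library alone. Among 16 cholesterol synthesis genes 3 were called higher and 3 lower, and 2 in each direction remained with each enteroendocrine library alone. Sc5d, an enzyme of the last steps, was at 44.4 and 41.8 CPM in enteroendocrine cells and 84.9 and 123 CPM in Lgr5-GFP-DTR cells. Of 15 interferon and antigen presentation genes, 1 was called in each direction, and only the higher one remained with each enteroendocrine library alone. B2m, the member called lower, was at 814 and 564 CPM in enteroendocrine cells and 1752 and 1530 CPM in Lgr5-GFP-DTR cells. The class II chain Cd74 was at 2546 and 1221 CPM in enteroendocrine cells and 1692 and 324 CPM in Lgr5-GFP-DTR cells, and was not called. In either direction 27.3% of the p53, 37.5% of the cholesterol and 13.3% of the interferon list were called, against 34.0% of all genes tested.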

How the data were processed

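RNA of the 4 libraries was read as 75 bp single-end sequences from SMART-Seq v4 libraries on a NextSeq 500, per the labels' protocols. The authors deposited raw read counts per gene symbol, 24062 genes in 25 libraries. Per the submitters' processing notes the tools included Bowtie2, TopHat2 2.0.6 and DESeq2 and the build was mm10, while the counting program, annotation and strand setting have no statement in the labels or notes used here, so overlapping and antisense genes cannot be separated.

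The 24 libraries of the 11 groups with 2 or more libraries were fitted together with edgeR 4.0.16 (R 4.3.3), with filterByExpr (minimum count 10, minimum total 15), TMM factors and the quasi-likelihood test, and p-values were adjusted over all 14837 genes tested. CPM uses TMM-scaled library sizes, and precision is limited by 2 libraries per group. The fit was tested on simulated counts drawn independently for each library, so that test does not cover libraries that share material. Members, gene lists and tests were chosen with earlier results of these data known. Named were the sort genes, set numbers of called and uncalled members per list by adjusted p and level, the largest and the most abundant changes, and a few members of the figures chosen after their values were seen. No fold was taken from fits with 3 or fewer counts in a group. Replicate numbers gave no sign of pairing (correlation of deviations across genes 0.058 over 2 pairs). With 2 libraries per group this cannot show whether the samples were paired. Alternatives were DESeq2 1.42.0, its size factors, no low-count filter, a minimum log2 difference of 1 (glmTreat), the 4 libraries alone, Lgr5-GFP-Cre as comparison, a replicate block and leaving out each library. RefSeq symbols or synonyms matched 14786 of the genes tested. A few genes of the lists are not reported here by name.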

Additional observations from a re-analysis of the deposited data

Results flagged for a closer look

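For 2 named genes the enteroendocrine difference was called in opposite directions against the 2 stem cell lines, and the lines themselves differed in a test of that difference (edgeR, Benjamini-Hochberg adjusted over all genes tested). Malat1, a nuclear noncoding RNA, was at 5444 and 5404 CPM in enteroendocrine cells and 10387 and 11503 CPM in Lgr5-GFP-DTR cells, with 552 to 1096 CPM in Lgr5-GFP-Cre cells. It differed by 3.61 (log2) between Lgr5-GFP-DTR and Lgr5-GFP-Cre cells (edgeR adjusted p = 1.25e-05). Dnajc3, a co-chaperone of the endoplasmic reticulum, was at 119 and 116 CPM in enteroendocrine cells and 197 and 254 CPM in Lgr5-GFP-DTR cells, with 84.0 to 98.1 CPM in Lgr5-GFP-Cre cells. It differed by 1.31 (log2) between the lines (edgeR adjusted p = 2.92e-05).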

How the results depend on the processing

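The 5045 calls (2947 higher, 2098 lower) became 1896 (1335 and 561) in a fit of the 4 libraries alone and 1277 (1073 and 204) with a minimum log2 difference of 1. With calls required with both and with each enteroendocrine library alone, an alternative chosen after seeing the data, they were 2378 (1587 and 791). Leaving out 1 library gave 3292 (without enteroendocrine replicate 1) to 4573 calls, 2151 to 2768 higher and 1141 to 1805 lower. DESeq2 size factors gave 3119 higher and 1896 lower, no filter 2798 and 1876, DESeq2 3256 and 2155, and the replicate block 3140 and 2135. The replicate block left 273 of 281 named genes that had a value on the same side of the threshold. Against Lgr5-GFP-Cre cells 3779 were higher and 3026 lower. The 3049 genes that differed between the stem cell lines were 1934 to 3507 when 1 library was left out, the lowest without Lgr5-GFP-Cre replicate 2.

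Of the 12 stem genes called lower, 3 passed a minimum log2 difference of 1, and 7 to 10 were called when 1 library was left out, 7 without Lgr5-GFP-DTR replicate 1. Of the 18 replication genes, 10 were called in a fit of the 4 libraries alone, 0 with the minimum difference, and 10 to 13 with 1 library left out, 10 without enteroendocrine replicate 2. Of the 22 mitosis genes, 5 passed the minimum difference. Counts of members called higher in the hormone, granin, exocytosis and endocrine transcription factor lists stayed within 1.5 times of the main value under every alternative run.

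Sign changes were counted only for named genes called in the main fit or in the alternative. Such changes were found only against Lgr5-GFP-Cre cells (15 of 262 with a value): Cdkn2b 0.24, Clps 0.45, Defa24 1.26, Dnajc3 0.37, Fdps 0.55, Fut2 5.25, Gm15284 0.62, Hsp90aa1 0.83, Itln1 0.35, Lyz1 0.012, Malat1 2.60, Mmp7 0.84, Msmo1 0.063, Nsdhl -0.99, Siglec5 6.46. Apcdd1, Cd8a, Cd96, Olfr78 and Penk had too few counts for a value without Lgr5-GFP-DTR replicate 1. Of 182 named genes called, 133 were kept with each enteroendocrine library alone. Depth limits genes near 3 counts, and 2 libraries per group limit every test. The causes of these shifts were not tested.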
